A study of Mus musculus with 6 samples.

Results

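The genes described here are 9 members of the plasminogen activator, serpin and coagulation systems: Plau, Plat, Plaur, Serpine2, Serpinb2, Serpinf1, Serpinb6a, Thbd and F3. They were taken by symbol from a table of 16894 genes, and they had been chosen with their values in the same comparison known, so their differences are given as a description with no test. The table holds RNA-seq of fibroadipogenic progenitors (FAPs), mesenchymal cells of skeletal muscle that can become fibroblasts or adipocytes, in 3 libraries of control (non-senescent) FAPs and 3 libraries of senescent FAPs. All cells were primary cultures of C57BL/6 mice, and the study's methods give male and female animals aged 3 to 6 months, the quadriceps, gastrocnemius and tibialis anterior muscles, and a magnetic sort for cells lacking CD45, CD31 and α7-integrin and carrying SCA-1. Senescent FAPs had received 20 µM of etoposide, a topoisomerase poison that breaks DNA, for 48 h and had then been kept without the drug for 5 days. The labels do not give the treatment or culture time of the control FAPs, and they do not say whether replicates came from separate cultures or animals, so p-values measure only the spread between these libraries, which may be technical.

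Plasminogen is a circulating proenzyme that Plau (urokinase, uPA) and Plat (tissue plasminogen activator, tPA) cut into plasmin, a serine protease that dissolves fibrin and degrades matrix around cells. Plaur, the urokinase receptor, holds urokinase at the cell surface. Serpins are suicide inhibitors that trap a protease in a covalent complex: Serpinb2 (PAI-2) blocks both activators, and Serpine2 (protease nexin-1) blocks urokinase, tPA and thrombin. F3 (tissue factor) starts coagulation, and Thbd (thrombomodulin) binds thrombin and turns it toward the activation of protein C, an anticoagulant enzyme. Serpine2, urokinase and its receptor are widely discussed as products of senescent cells, and in muscle the plasmin system is known for the clearance of fibrin after injury.

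Genes received 41412179 to 59912520 reads per library, and values are CPM of the effective library size, that is, reads relative to a library total corrected by edgeR's scaling. All 9 members passed the filter of 0.5 CPM in 3 libraries that 14776 genes passed, and the fewest reads behind a member's value were 539, for Serpinb2 in a control library. Cdkn1a, the cell cycle inhibitor p21, stood at 290 CPM in control and 1038 CPM in senescent libraries on average, and the proliferation marker Mki67 at 158 and 12.7 CPM. Of the markers of the sorted population, Pdgfra was present in every library at 126 to 254 CPM. Ly6a, which encodes SCA-1, stood at 220 to 678 CPM. Lum, a collagen-binding proteoglycan, was low, at 0.179 to 0.951 CPM in control and 3.14 to 3.51 CPM in senescent libraries. The means of Dcn (62.3 and 197 CPM) and Cd34 (22.5 and 70.1 CPM) were higher in senescent libraries, and those of the collagens Col1a1 (15545 and 3116 CPM) and Col3a1 (10040.8 and 6471 CPM) were lower. The 7 of 7 markers of FAPs summed to 15939 to 34652 CPM in control and 9084 to 13380.0 CPM in senescent libraries, a sum made up mostly of the collagens. Markers of other cell types were summed per library. Of these, 7 of 10 leukocyte and macrophage genes had values and summed to 13.4 to 16.0 CPM in control and 30.4 to 36.5 CPM in senescent libraries, 7 of 10 endothelial genes to 24.9 to 45.8 and 29.2 to 36.7 CPM, and 3 of 8 myogenic genes to 15.2 to 19.5 and 24.3 to 31.3 CPM. The sums were 5.31 to 8.11 and 6.66 to 10.6 CPM for 2 of 7 platelet genes and 4763 to 6675 and 1762 to 2797 CPM for 8 of 8 pericyte and smooth muscle genes. The last sum was made up mostly of Acta2, with means of 5096 and 1836 CPM. In that list the means of Rgs5, Notch3 and Abcc9 were higher in senescent libraries, and those of the other genes were lower. Itgam, a defining myeloid gene, reached at most 0.837 CPM and Cdh5, a defining endothelial gene, at most 0.647 CPM in any library. Each leukocyte and macrophage gene with values, Itgam included, had a higher mean in senescent libraries. The control and senescent means were 1.98 and 11.4 CPM for Cd53, 1.47 and 4.81 CPM for Cd68, 1.77 and 6.06 CPM for Lyz2, and 6.74 and 7.56 CPM for Csf1r. In bulk RNA, more or fewer cells of a type and more or less RNA per cell cannot be told apart.

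Promoter sequences are shown for the 3 members whose windows held an AP-1 motif, a binding site of Fos and Jun proteins, and for Serpine2, the member with the greatest difference. RefSeq (GRCm38.p6) gave windows from 250 bases before to 50 bases after the transcription start for 6 of the 9 members, Serpine2, Serpinb2, F3, Plaur, Serpinf1 and Serpinb6a. The 250 bases before the start are printed 5′ to 3′ on the strand of the gene for Serpine2 (chr1:79858666-79858915, minus strand), Serpinb2 (chr1:107511173-107511422, plus strand), F3 (chr3:121723287-121723536, plus strand) and Plaur (chr7:24462233-24462482, plus strand). Capitals mark matches on either strand to the AP-1 motif TGANTCA, the TATA motif TATAAA and the GC box GGGCGG.
Serpine2: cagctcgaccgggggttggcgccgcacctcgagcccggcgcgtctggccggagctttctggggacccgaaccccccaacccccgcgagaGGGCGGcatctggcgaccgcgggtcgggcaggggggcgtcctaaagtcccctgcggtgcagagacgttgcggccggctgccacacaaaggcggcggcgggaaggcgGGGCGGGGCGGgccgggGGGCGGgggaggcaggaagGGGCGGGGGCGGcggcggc
Serpinb2: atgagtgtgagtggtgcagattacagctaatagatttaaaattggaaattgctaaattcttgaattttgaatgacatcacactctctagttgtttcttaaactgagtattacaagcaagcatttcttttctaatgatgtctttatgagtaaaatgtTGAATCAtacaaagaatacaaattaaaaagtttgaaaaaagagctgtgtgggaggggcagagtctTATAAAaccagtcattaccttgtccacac
F3: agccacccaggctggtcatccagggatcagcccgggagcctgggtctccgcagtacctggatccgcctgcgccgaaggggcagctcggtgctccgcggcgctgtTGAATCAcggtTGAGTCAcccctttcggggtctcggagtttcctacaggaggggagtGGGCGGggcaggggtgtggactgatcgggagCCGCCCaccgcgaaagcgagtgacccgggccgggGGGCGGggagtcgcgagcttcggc
Plaur: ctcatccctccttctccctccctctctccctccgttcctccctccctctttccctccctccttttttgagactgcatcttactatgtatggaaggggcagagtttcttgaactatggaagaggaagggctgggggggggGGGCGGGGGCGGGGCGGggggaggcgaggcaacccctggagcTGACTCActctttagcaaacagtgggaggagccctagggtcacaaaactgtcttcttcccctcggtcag

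The AP-1 motif lay in the windows of 3 of the 6 members, F3, Plaur and Serpinb2, whereas 7.81% of the 32851 RefSeq promoter windows held it. Counted in bases from the start, with negative numbers before it, the 2 matches in F3 began at -146 and -135, the 1 in Serpinb2 at -94 and the 1 in Plaur at -69. Serpinb2 has a second RefSeq start, from which the same match began at -181. The TATA motif was found in 13.6% of all windows. It began at -29 in Serpinb2 (-116 from the second start), and in F3 it was matched on the opposite strand beyond the start. GC boxes, present in 35.7% of all windows, were matched in F3, Plaur, Serpinb6a and Serpine2. Serpine2 held 6 of them, of which those at -55 and -50 overlap by a base and those at -19 and -13 adjoin. Its window was 77.7% G and C against a median of 52.7% over all windows and 35.3% for Serpinb2 (39.3% at its second start). No member window held the cyclic AMP response element TGACGTCA (1.79% of windows) or the NF-kB motif (4.51%). CCAAT, present in 37.4% of windows, was matched in Serpinb2 (at its first start only), Serpinf1 and, at the second of its 2 starts, Serpinb6a. The 3 members with an AP-1 match included Serpinb2 and F3, which were higher in senescent libraries, and Plaur, which was lower.

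**Figure D1:**
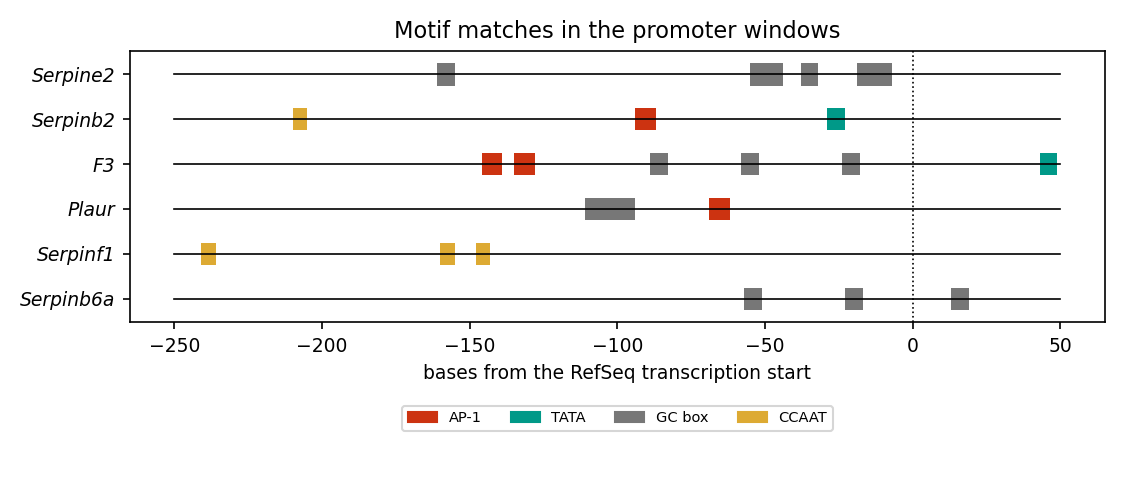
Motif matches in the promoter windows of 6 members, with distance from the RefSeq transcription start in bases on the x axis and 1 gene per line; boxes mark AP-1, TATA, GC box and CCAAT matches on either strand. For Serpinb2 and Serpinb6a only the window of the first start is drawn. AP-1 matches lie before the start of F3, Plaur and Serpinb2, and Serpine2 shows 6 GC box matches, some of which overlap or adjoin.

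Senescent FAPs held more RNA of the inhibitors Serpine2 and Serpinb2 and of Thbd, whereas the groups overlapped for the activators Plau and Plat. Of the 9 members, 5 had all senescent libraries above all control libraries (Serpine2, Serpinb2, Thbd, F3 and Serpinb6a), where 26.5% of all genes tested had the same arrangement. Plaur alone had all senescent libraries below all control libraries, an arrangement that 30.9% of all genes tested had, and the groups overlapped for Plau, Plat and Serpinf1. Nothing is read from these shares for the members, since the comparison served in choosing them. The sign of the difference was the same for each of the 9 members under every alternative processing and without each library in turn.

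**Figure D2:**
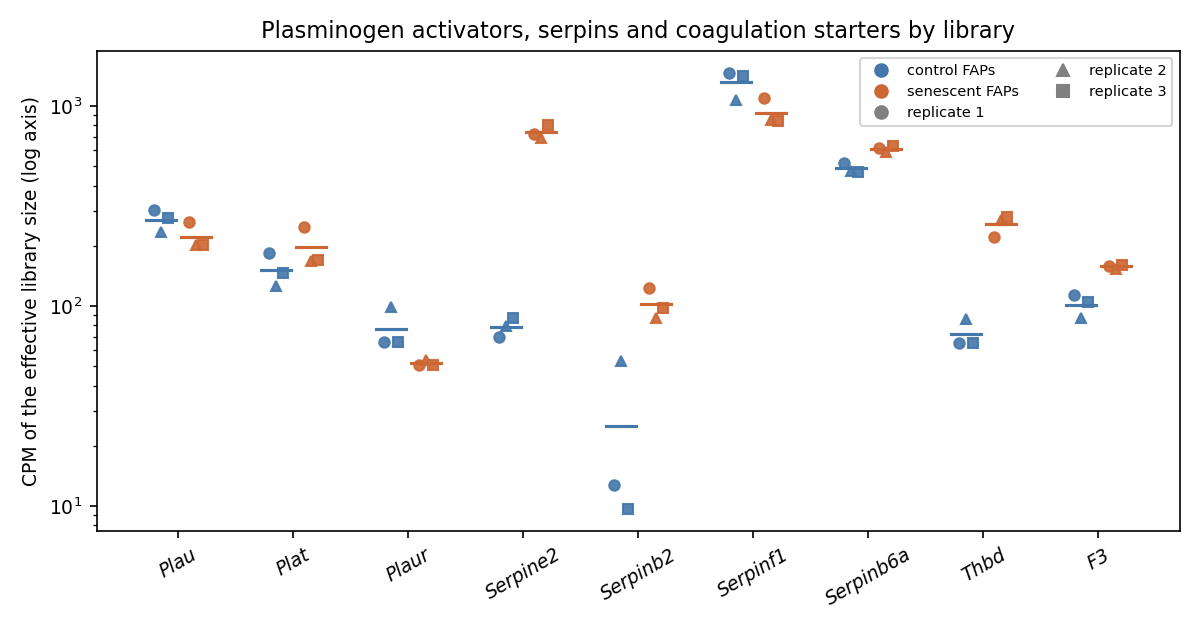
CPM of the effective library size on a log axis for the 9 members in each of the 6 libraries, control FAPs in blue and senescent FAPs in orange, with marker shapes for replicate numbers and lines at the group means. Serpine2 and Thbd stand far apart between the groups, Plau, Plat and Serpinf1 overlap, and control replicate 2 lies above the other controls for Serpinb2 and Plaur.

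Plau, urokinase, lies on chromosome 14 (20836660 to 20843385, plus strand, GRCm38) and was measured at 301, 235 and 276 CPM in control replicates 1, 2 and 3 and at 264, 201 and 202 CPM in senescent replicates 1, 2 and 3. The groups overlapped, because senescent replicate 1 exceeded control replicate 2. The means were 271 ± 33.75 and 222 ± 36.0 CPM (SD, n = 3 each), and the difference on the log2(CPM + 0.5) scale was -0.29 (SE 0.136). Without senescent replicate 1 it was -0.42 and without control replicate 1 it was -0.20. After division by library totals alone it was -0.07.

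Plat, tPA, lies on chromosome 8 (22757727 to 22782844, plus strand) and was measured at 184, 125 and 146 CPM in the control libraries and at 250, 169 and 170 CPM in the senescent libraries. Senescent replicates 2 and 3 lay below control replicate 1, so the groups overlapped, while senescent replicate 1 was 1.47 times the mean of the other 2 senescent libraries. The means were 151 ± 29.65 and 196 ± 46.3 CPM (SD, n = 3 each), with a log2 difference of 0.37 (SE 0.187) that was 0.18 without senescent replicate 1 and 0.51 without control replicate 1. Within equal replicate numbers, the difference was positive in all 3 pairs for Plat (0.44, 0.43 and 0.23) and negative in all 3 for Plau (-0.19, -0.22 and -0.45), also on the log2 scale.

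Plaur, the receptor that holds urokinase on the surface, lies on chromosome 7 (24462484 to 24475968, plus strand). It was measured at 66.3, 99.0 and 66.1 CPM in the control libraries and at 50.8, 53.8 and 50.7 CPM in the senescent libraries. The senescent libraries were close together (coefficient of variation 3.46%) and all lower than the controls, of which control replicate 2 was 1.495 times the mean of the other 2. The mean was 77.1 ± 18.9 CPM in control and 51.8 ± 1.79 CPM in senescent libraries (SD, n = 3 each), a 1.49-fold lower level with a log2 difference of -0.55 (SE 0.154). Without control replicate 2 the log2 difference was -0.35, and after division by library totals it was -0.33. The receptor and its ligand were thus both at lower mean values, the receptor without overlap between the groups and the ligand with it.

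Serpine2, protease nexin-1, lies on chromosome 1 (79794197 to 79861180, minus strand) and showed the greatest log2 difference of the 9 members. Its values were 69.9, 79.5 and 87.2 CPM in the control libraries and 725, 689 and 805 CPM in the senescent libraries. Every senescent library held several times the level of any control. The means were 78.9 ± 8.675 and 739.9 ± 59.4 CPM (SD, n = 3 each), a ratio of 9.38, with a log2 difference of 3.22 (SE 0.103). Leaving out any 1 library moved that difference only between 3.14 and 3.30, and equal replicate numbers gave 3.37, 3.11 and 3.2.

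Serpinb2, PAI-2, lies on chromosome 1 (107511423 to 107535478, plus strand) and overlaps Serpinb10 on the same strand by 6476 bases. Its RNA stood at 12.7, 52.8 and 9.68 CPM in the control libraries and at 123, 87.5 and 97.9 CPM in the senescent libraries. The senescent libraries were all higher, but control replicate 2 was 4.71 times the mean of the other 2 controls. The means were 25.1 ± 24.1 and 103 ± 18.4 CPM (SD, n = 3 each), a ratio of 4.11, and the log2 difference was 2.41 (SE 0.55). Leaving out control replicate 2 made it 3.14, leaving out control replicate 3 made it 1.95, and equal replicate numbers gave 3.23, 0.72 and 3.27. Control replicate 2 also had the highest value of Plaur and of Mki67, which was 247 CPM there against 125 and 101 CPM in control replicates 1 and 3, and the part of that library's state in these values was not tested. Serpinb10 stood at 0.0444 CPM in control and 0.324 CPM in senescent libraries on average, far below Serpinb2.

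Levels of different genes can be set side by side only per length, as CPM per kb of exon. The length is the union of all annotated exons, 8287 bases for Serpine2, 2349 for Serpinb2, 2367 for Plau and 6241 for Plat. Where the transcripts in these cells are shorter than that union, the value is too low, and transcript lengths were not measured. On this scale Serpine2 stood at 9.52 ± 1.05 CPM per kb in control and 89.3 ± 7.17 CPM per kb in senescent FAPs, rank 4545 and rank 427 of the 15973 genes matched to the annotation. Serpinb2 stood at 10.7 ± 10.2 and 43.8 ± 7.82 CPM per kb, rank 4119 and rank 1011. In senescent FAPs the per-length level of Serpine2 was within the spread of that of Plau, 94.0 ± 15.2 CPM per kb, which was 114 ± 14.3 in control FAPs, while Plat stood at 24.3 ± 4.75 in control and 31.5 ± 7.41 in senescent FAPs (SD, n = 3 each).

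The sum of Serpine2 and Serpinb2 per length was 20.2 ± 10.3 CPM per kb in control and 133 ± 11 CPM per kb in senescent libraries, and the sum of the activators Plau and Plat was 139 ± 18.8 and 125 ± 22.6 CPM per kb (SD, n = 3 each). The ratio of the former to the latter was 0.0883, 0.269 and 0.105 in the control libraries and 0.924, 1.07 and 1.23 in the senescent libraries. Every senescent library was above every control, and control replicate 2 was the highest control through its Serpinb2. The mean ratios were 0.154 ± 0.10 and 1.08 ± 0.154 (SD, n = 3 each), with Serpine2 and Serpinb2 as the only inhibitors in the sum, so they are not the balance of all inhibitors with the activators. How near a ratio comes to parity also depends on the exon lengths used. The ratio of Serpine2 to Plau alone was 0.0662, 0.0969 and 0.0903 in the control libraries and 0.785, 0.978 and 1.14 in the senescent libraries.

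Serpine2 made up 60.9%, 29.9% and 71.9% of the sum of the 2 serpins per length in the control libraries and 62.5%, 69.1% and 70.0% in the senescent libraries. The share overlapped between the groups, with control replicate 2 the lowest. Among the activators, Plat made up 18.8%, 16.8% and 16.7% in control and 26.4%, 24.1% and 24.2% in senescent libraries, so that the Plat share was separate between the groups although the level of either activator was not. These are shares of RNA, and no protein or enzyme activity was measured in these files.

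**Figure D3:**
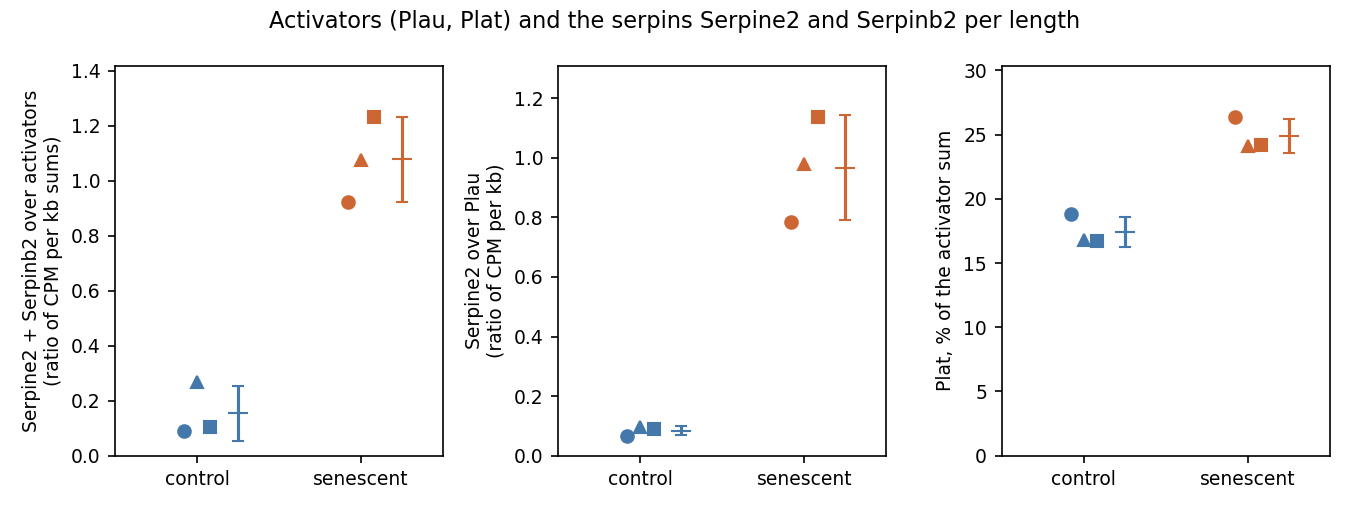
Per library, the ratio of the summed RNA of Serpine2 and Serpinb2 to that of the activators Plau and Plat in CPM per kb, the ratio of Serpine2 to Plau in CPM per kb, and the share of Plat in the activator sum, for control (blue) and senescent (orange) FAPs; circles, triangles and squares are replicates 1, 2 and 3, and the bars are the mean ± SD of 3 libraries. The first ratio is 0.0883 to 0.269 in control and 0.924 to 1.23 in senescent libraries, and all 3 measures are higher in every senescent library.

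Serpinf1, pigment epithelium-derived factor, is a secreted serpin with no known protease target that limits the growth of vessels, and it lies on chromosome 11 (75409769 to 75422701, minus strand). It was measured at 1469.7, 1074 and 1413 CPM in the control libraries and at 1097, 847 and 837 CPM in the senescent libraries. Senescent replicate 1 exceeded control replicate 2, so the groups overlapped by that pair of libraries. The means were 1319 ± 214 and 927 ± 147 CPM (SD, n = 3 each), the log2 difference was -0.51 (SE 0.163), and it ranged from -0.65 to -0.42 when 1 library was left out. With 559 ± 90.8 and 393 ± 62.5 CPM per kb it was the most abundant of the 9 members per length in both groups, on the exon lengths used.

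Serpinb6a is an intracellular inhibitor of serine proteases of the clade b and lies on chromosome 13 (33917918 to 34002794, minus strand). Control libraries gave 519, 475 and 470.3 CPM and senescent libraries 614, 586 and 633 CPM. All senescent libraries were higher, by a small and even amount: the means were 488 ± 26.7 and 611 ± 23.8 CPM (SD, n = 3 each), a ratio of 1.25, and the log2 difference was 0.32 (SE 0.0822), between 0.30 and 0.37 with 1 library left out. Its relatives Serpinb6b and Serpinb6c, the latter 12209 bases away, were much lower and rose, Serpinb6b from 1.45 ± 0.731 to 5.76 ± 2.20 CPM (limma adjusted p = 0.00643) and Serpinb6c from 1.51 ± 0.317 to 7.61 ± 2.18 CPM (limma adjusted p = 0.000703). Reads that these paralogs may share could be split either way in counting, so the values of the 2 low genes are uncertain. A gene on the opposite strand, 1110046J04Rik, lies within Serpinb6a, and the sources used here do not say if counting was by strand.

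The rest of the serpin family, every gene of the table with a Serpin symbol other than the 4 members, held 23 genes, of which 18 were tested. Of these, 13 rose, 2 fell and 3 did not pass the test at a limma adjusted p under 0.05. Over all genes tested, 21.8% rose and 24.3% fell at the same threshold. The median log2 difference of the 18 was 1.05, and that of all genes tested was -0.03. This family and the gene lists below were chosen with earlier results of these data known, so nothing is read from their shares. In the clade b, 8 of 9 tested genes rose and none fell, and Serpinb1a, at 13.6 and 23.6 CPM, did not pass (adjusted p = 0.110, log2 difference 0.90). Of those 8, Serpinb7 and Serpinb9e had every control library under 0.5 CPM, so they entered the test only through the senescent group. Serpinb1b, at 0.513, 0.323 and 0.395 CPM in the control libraries, also needed the senescent libraries to pass the filter.

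Serpina3n, an inhibitor of granzyme B and other proteases, had the smallest p of the family. It was measured at 2.30, 4.2 and 2.06 CPM in the control libraries and at 60.04, 44.8 and 46.0 CPM in the senescent libraries, with a log2 difference of 3.96 (SE 0.239, limma adjusted p = 0.000107). It has paralogs on chromosome 12, as Serpinb9 has on chromosome 13, and reads that paralogs may share make these values uncertain. Serpinb9, which protects cells from granzyme B, rose from 11.2 ± 0.864 to 24.2 ± 1.18 CPM (1.08 on the log2 scale, limma adjusted p = 0.000331). Serpinh1 is a collagen chaperone of the endoplasmic reticulum with no protease target, and it fell from 2493 ± 628 to 950.4 ± 128 CPM (-1.37 on the log2 scale, limma adjusted p = 0.00168).

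Most of the serpins that rose were at low levels. Of the 11 tested serpins with a mean under 10 CPM, 10 rose, and of the 7 at 10 CPM or more, 3 rose and 2 fell, while among all genes 28.3% rose and 13.5% fell under 10 CPM and 17.7% rose and 31.1% fell at 10 CPM or more. For 4 of the 13 that rose, every control library was under 0.5 CPM, so that they could pass the filter only through the senescent group, and without them 9 of 14 rose. Serpinb1b is still among those 9, though it too needed the senescent libraries to pass. Of all 448 genes tested with such control libraries, 95.5% rose and none fell. At a filter of 2 CPM, 8 of the tested serpins rose. The same leukocyte genes whose sum was higher in senescent libraries stand beside this group, and their part in it was not tested. Serpins lie in clusters, but they were counted here by whole chromosome. On chromosome 1, Serpinc1 (start 160978585) lies far from Serpinb7 (start 107399655). On chromosome 13, where Serpinb6a lies, 6 of 7 tested other serpins rose, against 3 of 3 on chromosome 1 and 2 of 3 on chromosome 12. These counts include Serpinb7 and Serpinc1 on chromosome 1 and Serpinb1b and Serpinb9e on chromosome 13, which passed the filter only through the senescent group.

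**Figure D4:**
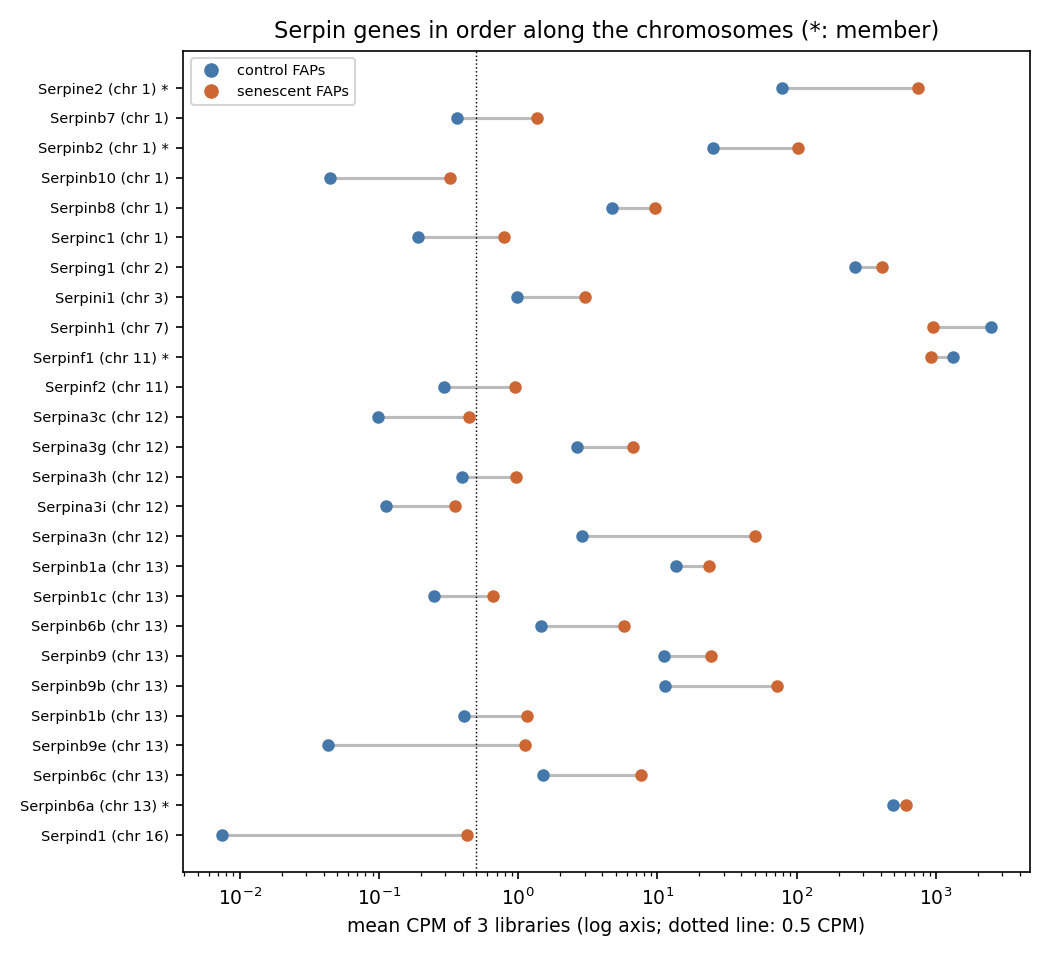
Mean CPM on a log axis of serpin genes of the table in 3 control (blue) and 3 senescent (orange) libraries, in order along the chromosomes, with members marked by a star and a dotted line at 0.5 CPM. In the deposited scaling Serpinh1 and Serpinf1 have lower means in senescent FAPs, and the other serpins plotted have higher ones, many of them near or below 10 CPM.

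F3, tissue factor, lies on chromosome 3 (121723537 to 121735048, plus strand) and was measured at 114, 87.0 and 104 CPM in the control libraries and at 159, 154 and 160.5 CPM in the senescent libraries. The senescent libraries were all higher and close together, with a coefficient of variation of 2.32%. The means were 102 ± 13.6 and 158 ± 3.67 CPM (SD, n = 3 each), a ratio of 1.55, and the log2 difference was 0.64 (SE 0.102), between 0.53 and 0.72 with 1 library left out.

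Thbd, thrombomodulin, is a single-exon gene on chromosome 2 (148404466 to 148408188, minus strand). The gene had values of 65.5, 85.7 and 65.6 CPM in the control libraries and of 222, 269 and 277 CPM in the senescent libraries. The lowest senescent library lay well above the highest control. The means were 72.2 ± 11.6 and 256 ± 29.8 CPM (SD, n = 3 each), a ratio of 3.54, and the log2 difference was 1.82 (SE 0.132), between 1.76 and 1.95 with 1 library left out. Thbd is also abundant in endothelium, and the endothelial marker sums of the groups overlapped, as given above, with Tek as the most abundant gene of that list. Of the single endothelial markers, Pecam1 was 0.467 to 1.03 CPM in control and 1.59 to 1.87 CPM in senescent libraries, Vwf rose from a mean of 1.08 to 1.99 CPM (limma adjusted p = 0.0241) and Kdr had means of 4.05 and 2.20 CPM, and the part of endothelial RNA in the values of Thbd was not tested. Per length, F3 exceeded Thbd in control FAPs, at 40.2 ± 5.37 against 19.4 ± 3.13 CPM per kb, and in senescent FAPs they stood at 62.4 ± 1.45 and 68.8 ± 8.001 CPM per kb, a gap within the spread of Thbd.

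Partners of thrombomodulin and tissue factor are given next. Procr, the endothelial protein C receptor, rose from 12.2 ± 1.90 to 35.0 ± 3.59 CPM (1.49 on the log2 scale, SE 0.134, limma adjusted p = 0.000302). Pros1, protein S, the cofactor of activated protein C, rose from 162 ± 15.1 to 297 ± 19.7 CPM (0.87, SE 0.0922, adjusted p = 0.000468), and its relative Gas6, a ligand of the Axl receptor, from 244 ± 53.6 to 605 ± 23.4 CPM (1.33, SE 0.144, adjusted p = 0.000506). Tfpi, the inhibitor of the tissue factor complex, stood at 75.6 ± 6.396 and 85.9 ± 7.05 CPM and did not pass the test (0.18, adjusted p = 0.143), though it passed after division by library totals (0.0118) and quantile normalization (0.0343). The thrombin receptor F2r, at 415 and 486 CPM, and F2rl1, at 4.02 and 2.67 CPM, did not pass either (adjusted p = 0.314 and 0.0999). After quantile normalization F2rl1 passed (-0.60, limma adjusted p = 0.0468).

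In the whole list of coagulation and anticoagulant genes, 28 of 43 had values beside the members and 27 were tested. Of these, 11 rose, 3 fell and 13 did not pass, with a median log2 difference of 0.34 against -0.03 over all genes tested. Among all genes tested, 21.8% rose and 24.3% fell. In this list 40.7% rose and 11.1% fell, and 2 of the 11 that rose had every control library under 0.5 CPM, so that they passed the filter only through the senescent group. As the list was chosen with earlier results of these data known, nothing is read from these shares. Lman1, a cargo receptor for clotting factors, fell from 309 ± 20.6 to 188 ± 5.18 CPM (adjusted p = 0.000465), Vkorc1l1, which recycles vitamin K, from 64.2 ± 2.67 to 44.5 ± 2.90 CPM (adjusted p = 0.00175), and Ggcx, the carboxylase that uses it, from 93.9 ± 6.79 to 72.1 ± 5.91 CPM (adjusted p = 0.0109). The partner of Lman1 in that receptor, Mcfd2, rose from 332 to 472 CPM (0.51, adjusted p = 0.00687), and so did Vkorc1, the relative of Vkorc1l1, from 51.8 to 61.7 CPM (0.25, adjusted p = 0.027). The fall of Ggcx did not pass without senescent replicate 2 (adjusted p = 0.0516) or after division by library totals (0.148).

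In the plasminogen system beyond the members, 29 of 34 listed genes had values and 27 were tested. Of these, 7 rose, 7 fell and 13 did not pass, and the median log2 difference was -0.07. These are 25.9% in each direction, near the 21.8% that rose and 24.3% that fell among all genes tested, and 2 of the 7 that rose had every control library under 0.5 CPM. Hpn, which also rose, stood at 0.692, 0.209 and 0.790 CPM in the control libraries, so it needed the senescent libraries to pass the filter. The count of genes that fell was 11 with the replicate number as a block, 4 without senescent replicate 2 and 3 without senescent replicate 3. Plg, plasminogen itself, and the paralogs Serpinb6d and Serpine3 were not analysed here. Serpinf2, the main inhibitor of plasmin, was at a low level and rose from 0.292 ± 0.0654 to 0.949 ± 0.179 CPM (0.87, SE 0.166, adjusted p = 0.00475). As all its control libraries were under 0.5 CPM, it entered the test only through the senescent group, and its p is no support for a difference. Vtn, vitronectin, a matrix protein that binds Plaur, stood at 0.0958 and 0.445 CPM and was below the filter.

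Of the receptors that clear or dock these proteins, some were abundant and others were not, such as Lrp2 at 2.89 and 2.83 CPM, Plgrkt at 25.03 and 26.0 CPM and Vldlr at 62.7 and 37.8 CPM. Lrp1, which takes up complexes of serpins with their proteases, stood at 3984 ± 116 and 2951 ± 293 CPM and passed the test (-0.44, SE 0.145, adjusted p = 0.0405). It did not pass without any 1 of 5 of the 6 libraries, all but control replicate 2, at adjusted p-values of 0.0616 to 0.162, nor after division by library totals (-0.22, adjusted p = 0.244) or quantile normalization (0.06, adjusted p = 0.783). Anxa2, at 1729 and 1647 CPM, and S100a10, at 170 and 205 CPM, form the complex that docks plasminogen and tPA at the surface. Neither passed (limma adjusted p = 0.636 and 0.160), although S100a10 passed with the replicate block (0.0291) and after division by library totals (0.49, adjusted p = 0.0233). Mrc2, a collagen receptor that joins the urokinase receptor at the surface, stood at 704 ± 97.2 and 757 ± 42.1 CPM (adjusted p = 0.458).

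Serping1, the inhibitor of the complement protease C1 and of kallikrein, was measured at 301, 133 and 347 CPM in the control libraries and at 474, 354 and 409 CPM in the senescent libraries. The groups were just apart, control replicate 2 was the lowest, and the difference of 0.77 (SE 0.328) did not pass (limma adjusted p = 0.0917) but did with the replicate block (0.0163), DESeq2 (0.0352), quantile normalization (0.0496), division by library totals (0.0382) and without control replicate 3 (0.0458). Without control replicate 2 the difference was 0.34.

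**Figure D5:**
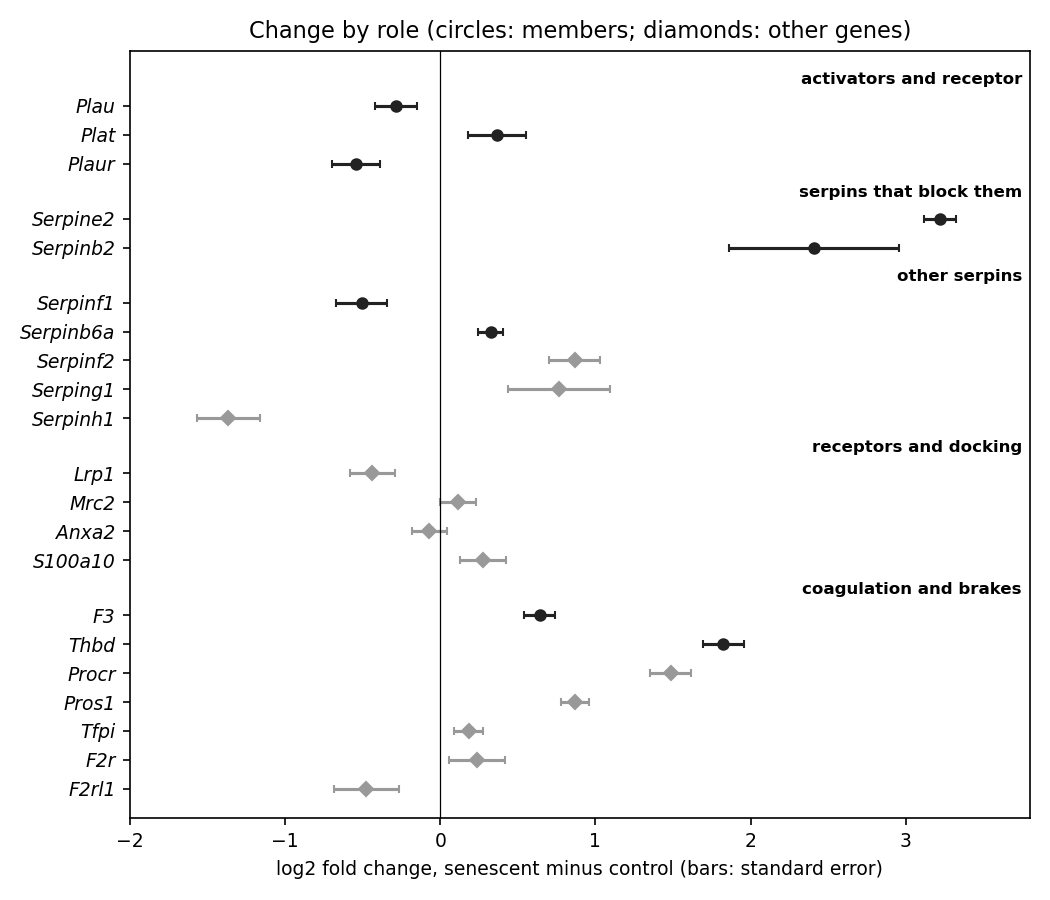
Log2 difference between senescent and control FAPs, on the log2(CPM + 0.5) scale, for the members (black circles) and for partner genes that are no members (grey diamonds), grouped by role, with bars of 1 standard error from the fit across all genes. Serpine2, Serpinb2 and Thbd lie furthest to the right, Serpinh1 furthest to the left, and Plau, Plat and the docking genes lie near 0.

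Other genes of the plasminogen list that rose included proteases of the cell surface. St14, matriptase, a membrane protease that can cut urokinase into its active form, rose from 0.233 ± 0.111 to 5.45 ± 0.843 CPM (3.02, SE 0.186, limma adjusted p = 0.00011), from a control level under the filter, so that it too entered the test only through the senescent group. Klk8, a kallikrein, rose from 5.20 ± 1.49 to 24.97 ± 9.65 CPM (2.12, adjusted p = 0.00196), and Itgb5, an integrin subunit of vitronectin receptors, from 344 ± 44.2 to 614 ± 66.4 CPM (0.84, adjusted p = 0.00157). The integrin subunits Itgav (506 to 348 CPM, -0.52, adjusted p = 0.0162) and Itgb3 (142 to 96.8 CPM, -0.52, adjusted p = 0.0473) fell. Itgb1 and Itga3 did not pass the main test (limma adjusted p = 0.0746 and 0.105), and their calls with the replicate block are not given here. Among the genes that fell were Pdgfc, a growth factor that tPA activates, from 196 ± 4.29 to 99.3 ± 10.6 CPM (-0.98, adjusted p = 0.000293), Itga5, the fibronectin receptor subunit, from 2661 ± 199.98 to 1147 ± 201 CPM (-1.23, adjusted p = 0.000806), and Eno1, a glycolytic enzyme that also binds plasminogen at the surface, from 2443 ± 412 to 1239.6 ± 118 CPM (-0.97, adjusted p = 0.00207).

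Other secreted and membrane serine proteases showed changes in both directions. Of 34 with values among 45 listed, 32 were tested, 11 rose, 7 fell and 14 did not pass, and the median log2 difference was 0.35. These are 34.4% higher and 21.9% lower, against 21.8% and 24.3% among all genes tested, and 2 of the 11 that rose, Pcsk1 among them, had every control library under 0.5 CPM and entered the test only through the senescent group. Nothing is read from these shares, as for the other lists. The proprotein convertase Pcsk1, which processes prohormones, rose from 0.0518 ± 0.00644 to 2.12 ± 0.407 CPM (2.24, adjusted p = 0.000169), Pcsk5 from 24.0 ± 3.37 to 56.2 ± 4.90 CPM (1.22, adjusted p = 0.000391) and Htra4 from 2.34 ± 0.527 to 9.38 ± 1.53 CPM (1.80, adjusted p = 0.000479). Prcp, a lysosomal carboxypeptidase, fell from 44.5 ± 0.499 to 29.0 ± 1.42 CPM (-0.61, adjusted p = 0.000797) and Htra1 from 214 ± 55.2 to 107 ± 9.80 CPM (-0.96, adjusted p = 0.00471). The control level of Pcsk1 was close to that of single reads, so its log2 difference depends on the pseudocount and ranged from 1.56 to 5.38 over the alternatives.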

How the data were processed

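Bulk RNA-seq of 3 control and 3 senescent FAP libraries was used, grouped by the sample labels. Per the study's methods and the submitters' processing notes, the authors made stranded mRNA libraries, sequenced them, counted reads per gene for mm10 and used edgeR 3.10 in R 3.6.0. The aligner, the counting tool, the annotation and the use of strand are not given in the sources used here. The authors deposited the signal as 1 value per gene and library, CPM of the effective library size, that is reads relative to a total already corrected by scaling factors (0.917 to 0.940 in control and 1.07 to 1.09 in senescent libraries). Each value (100%, tolerance 0.01) divided by what 1 read is worth gave a whole number, and these numbers of reads were recovered. The plan had assumed CPM, and the same test was kept. The table holds 16895 lines. The 1 line that names no gene (0.00409% to 0.00699% of reads) was left out. Each gene listed had 8 reads or more in at least 3 libraries, so genes below that level are not analysed here.

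A gene entered the test with 0.5 CPM or more in 3 or more libraries (14776 genes). The test was limma 3.58.1 in R 4.3.3, two-sided, on log2(CPM + 0.5), using a variance trend and Benjamini-Hochberg adjustment over all genes tested. Log2 differences are on that scale, which understates changes of low genes. The library reads, 41412179 to 59912520, set the counting precision. Positions and exon lengths (the union of annotated exons) are from GENCODE M21 (GRCm38), where 15973 symbols matched, and promoters are from RefSeq, GRCm38.p6. Scripts were tested on simulated data.

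The members and the gene lists were chosen with earlier results of these data known. The genes named are the members, partner genes, 4 paralogs and, in each list, the 3 with the smallest p among those called in each direction. Of these, 2 are counted in totals and not reported here. Serpinb1a, Serpinb1b, Serpinb7, Serpinb9e, Serpinb10, Serpinc1, Hpn, Lrp2, Plgrkt, Vldlr, Itgav, Itgb3, Itgb1, Itga3, Mcfd2, Vkorc1, 1110046J04Rik and the marker genes named singly were added with their values in view. Alternatives tried were pseudocounts of 0.1 and 1, no filter and a filter at 2 CPM, median-of-ratios scaling, quantile normalization, division by library totals, each library left out, a replicate block, no variance trend, and edgeR 4.0.16 (quasi-likelihood) and DESeq2 1.42.0 on the recovered reads. Deviations of libraries with equal replicate numbers correlated at 0.537, 0.308 and 0.207, against -0.357 to 0.153 for unequal numbers. The numbers were therefore taken as pairs in the replicate block and in the differences within equal numbers. The main test was unpaired. This pairing comes from the data, as the labels do not state it.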

Additional observations from a re-analysis of the deposited data

How the results depend on the processing

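The direction of the difference was the same for each of the 9 members under all alternatives. The median log2 difference of all genes was -0.03, and division by library totals moved it to 0.17, by more than any other alternative. That scaling turned 3218 genes higher and 3592 lower into 5056 and 1933, the plasminogen list from 7 and 7 to 10 and 4, and the other serine proteases from 11 and 7 to 17 and 4. Quantile normalization gave 3 plasminogen genes and 1 serpin called lower, and it reversed Lrp1 (0.057). The cause was not tested. A filter at 2 CPM, which tests fewer genes, left 4 plasminogen genes and 8 serpins called higher. The replicate block gave 11 plasminogen genes called lower (7 without it). Among the partner genes, paralogs and genes named by smallest p, it changed the calls of S100a10 and Serping1. Single calls with the block are not given for the genes added with their values in view, and some of these may differ. Leaving out 1 library gave 2130 (without senescent replicate 2) to 3405 (without control replicate 2) genes called higher, 3 (without senescent replicate 3) to 8 (without control replicate 2) plasminogen genes called lower, 1 (without senescent replicate 3) to 2 serpins called lower, and 1 to 3 members with separate and lower senescent values. That 3 was reached without control replicate 2 and without senescent replicate 1, as the libraries that made groups overlap were then absent. DESeq2 called 3560 genes higher and 3440 lower, and edgeR 3261 and 3307. Depth limits the serpins under 0.5 CPM most, since 1 read was worth 0.0167 to 0.0225 CPM.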
